A study of Mus musculus with 5 samples.

Results

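Endothelial marker genes were examined in sorted cells of the neonatal mouse retina, with Cldn5, the gene of the tight junction protein claudin-5, set against 7 other markers: the VEGF receptors Kdr and Flt1, the angiopoietin receptor Tek and its relative Tie1, the adhesion molecules Pecam1 and Cdh5, and the sialomucin Emcn. The 8 genes were taken by symbol from a table of 24594 genes, and all 8 were present. They were chosen by their measured values, since Cldn5 was picked for its higher normalised read counts in 1 group and the others to set beside it, so the difference between the groups is described for them without a test. One group is made of 3 libraries with the label Zfp292-OE, from retinas electroporated with a plasmid carrying Zfp292, a large nuclear zinc finger protein. The 2 control libraries came from retinas given a plasmid carrying green fluorescent protein (GFP). In both groups the plasmid had the CAG promoter, which is active in most cell types, went into living pups at postnatal day 0, and the retinas were dissociated 4 days later. GFP-positive cells were sorted from both groups, and the labels call them RPC. Whether GFP in the Zfp292 group came from the same plasmid is not given in the labels. The labels give no strain, sex or count of animals, and do not say whether replicate libraries are separate litters, pups or preparations; p-values therefore rest on a spread that may be technical.

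Blood vessels grow across the mouse retina in the days after birth. VEGF from neural and glial cells acts through Kdr, the main signalling receptor of endothelial cells, while Flt1 binds VEGF tightly and largely acts as a trap. Angiopoietins act through Tek, with Tie1 as its partner. Cdh5 is the cadherin of endothelial adherens junctions, Pecam1 is an adhesion molecule also found on leukocytes and platelets, and claudin-5 seals the tight junctions of the blood-retina barrier. Kdr is also known from retinal progenitors and neurons, so it is the member least bound to vessels in this tissue.

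Total reads assigned to genes ranged from 114197740 to 135442444 in the Zfp292-OE-labelled libraries and were 103096224 and 137683716 in the control libraries. Values are normalised read counts, that is reads divided by 1 factor per library, and 1 read was worth 0.770 to 1.14. Reads counted under Zfp292 itself were not detectably higher in the Zfp292-OE-labelled libraries, at 14631, 13197 and 15534, against 13288 and 14756 in controls (limma adjusted p = 0.87), and directions here follow the labels. limma tested the 16316 genes averaging 10 or more, and 17.4% passed at an adjusted p below 0.05, with 1632 above and 1204 below control. In edgeR 16.1% passed. Leaving out either control left 1 gene called in the whole table, so calls given here rest on having both.

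The sequences just before the annotated starts of Cldn5, Kdr and Flt1, the members with the most reads per length, and of Cdc45, the gene next to Cldn5, are shown side by side. RefSeq windows on GRCm38.p6 were matched for 6 of the 8 members, Pecam1 and Cdh5 being the others, and each is printed for the 250 bases before the start used by that table, on the strand of the gene. For Kdr and Flt1 this start lies inside the RefSeq gene span. Capitals mark CCAAT boxes (CCAAT, or ATTGG read on the other strand), the cell cycle genes homology region, or CHR (TTTGAA or TTCAAA), and the core of ETS factor sites (GGAA or TTCC). In Cdc45 a CCAAT box and an ETS core overlap.
Cldn5, chr16:18776597-18776846, plus strand: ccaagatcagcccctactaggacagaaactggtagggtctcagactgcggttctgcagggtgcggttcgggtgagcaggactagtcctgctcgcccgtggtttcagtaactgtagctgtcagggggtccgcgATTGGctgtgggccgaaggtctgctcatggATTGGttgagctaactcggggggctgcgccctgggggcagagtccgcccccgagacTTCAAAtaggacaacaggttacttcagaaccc
Kdr, chr5:75978456-75978705, minus strand: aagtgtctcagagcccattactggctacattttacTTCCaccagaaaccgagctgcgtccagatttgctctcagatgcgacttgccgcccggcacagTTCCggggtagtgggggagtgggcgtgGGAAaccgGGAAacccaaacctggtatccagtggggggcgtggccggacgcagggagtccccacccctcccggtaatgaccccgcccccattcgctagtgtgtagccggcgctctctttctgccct
Flt1, chr5:147726012-147726261, minus strand: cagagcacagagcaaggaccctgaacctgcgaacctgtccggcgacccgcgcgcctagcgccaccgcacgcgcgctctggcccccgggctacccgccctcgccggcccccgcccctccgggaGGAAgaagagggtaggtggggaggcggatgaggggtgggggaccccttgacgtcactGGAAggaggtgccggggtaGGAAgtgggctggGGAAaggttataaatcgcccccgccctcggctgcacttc
Cdc45, chr16:18811973-18812222, minus strand: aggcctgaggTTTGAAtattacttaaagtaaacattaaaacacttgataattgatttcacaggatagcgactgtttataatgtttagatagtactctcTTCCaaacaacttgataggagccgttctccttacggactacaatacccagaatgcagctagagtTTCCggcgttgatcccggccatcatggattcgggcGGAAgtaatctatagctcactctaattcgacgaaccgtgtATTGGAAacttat

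The Cldn5 window holds 2 CCAAT boxes, the first base of which lies 118 and 88 bases before the start, and 1 CHR, at 32 to 27 bases before it. It holds 0 ETS cores, while the Kdr and Flt1 windows hold 4 each and no CCAAT box or CHR. The Emcn window holds 2 CHR and no CCAAT box, and the Tek and Tie1 windows hold neither. Among 32851 RefSeq windows of the same length, on either strand, 33.8% hold a CCAAT box, 10.1% hold at least 2, 16.0% hold a CHR and 93.4% hold an ETS core. At least 2 CCAAT boxes together with a CHR stand in 1.53% of windows. Of 8 windows of the 6 matched genes among those with values most like those of Cldn5, 3 hold a CCAAT box, 2 a CHR and 0 at least 2 CCAAT boxes. An E2F site, searched as TTTCCCGC, TTTGGCGC, TTTCGCGC or TTTGCCGC on either strand, is in 1.86% of windows and in 0 of the 6 member windows. These letters were chosen after the windows and the values had been seen. A match is only a match of letters, and none of these windows was tested for binding or activity.

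Cldn5 (Entrez 12741, GRCm38 chromosome 16, 18776847 to 18778262, plus strand, 1 exon of 1416 bases) was much higher in the Zfp292-OE-labelled libraries. Its normalised read counts were 1995, 3227 and 1728 in Zfp292-OE-labelled libraries 1, 2 and 3, against 234 and 203 in control libraries 1 and 2. The groups were far apart, and the lowest Zfp292-OE-labelled library lay well above the higher control. The means were 2317 ± 800 (SD, n = 3) in the Zfp292-OE-labelled libraries and 219 ± 21.9 (SD, n = 2) in controls, a ratio of 10.6. These values rest on 6834 reads over the 3 Zfp292-OE-labelled libraries and 479 over the 2 controls. The log2 fold change on the log2(value + 1) scale was 3.35 (SE 0.34), and it lay between 3.08 and 3.53 when any 1 library was left out.

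**Figure D1:**
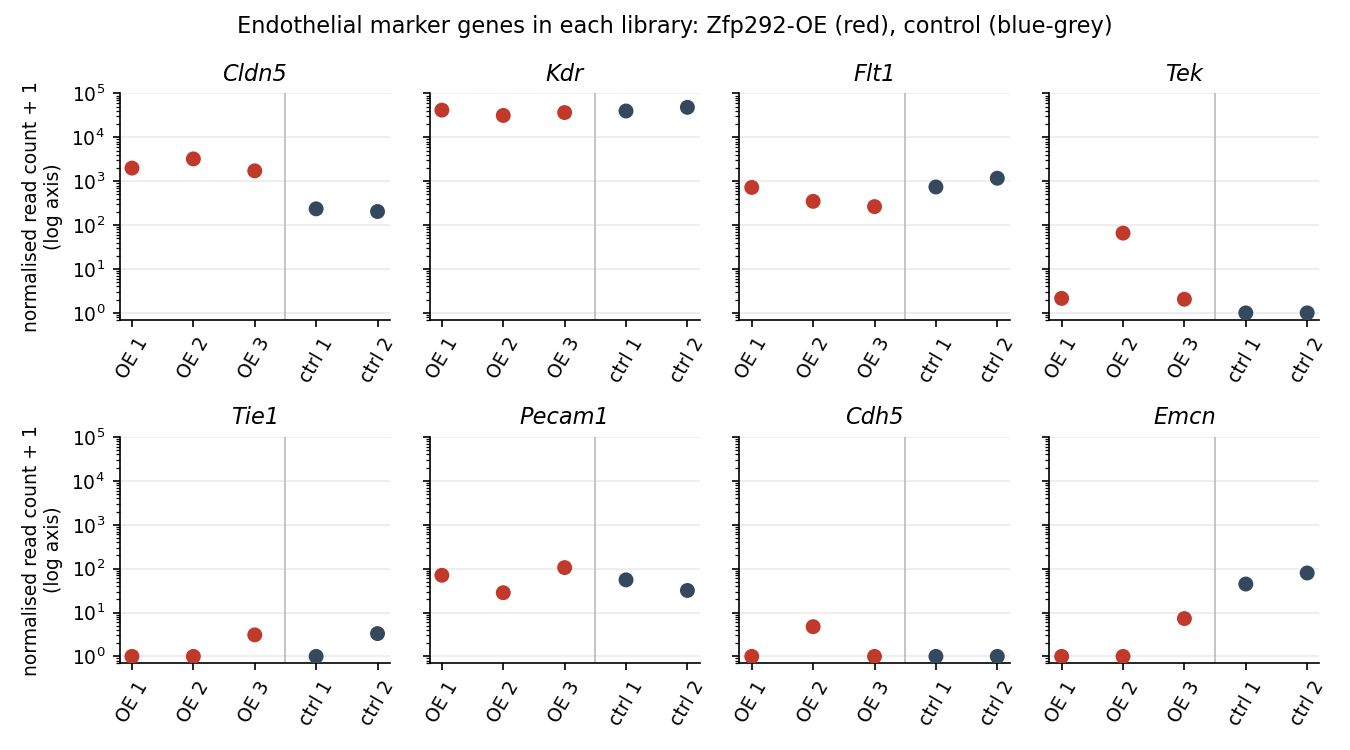
Normalised read count + 1 (log axis) of the 8 endothelial genes, 1 point per library, with Zfp292-OE-labelled libraries on the left of each panel and controls on the right. Cldn5 is the member with high values in all 3 Zfp292-OE-labelled libraries (1728 to 3227) and low values in both controls (203 and 234), while Cdh5 and Tie1 lie at or close to 0 throughout.

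The VEGF receptors did not share this pattern. Kdr (Entrez 16542, chromosome 5, 75932827 to 75979072) had 41822, 31624 and 36800 in the Zfp292-OE-labelled libraries, against 39920 and 48368 in controls. The groups overlapped, with means of 36749 ± 5099 (SD, n = 3) in the Zfp292-OE-labelled libraries and 44144 ± 5974 (SD, n = 2) in controls, and the log2 fold change was −0.27 (SE 0.16). Flt1 (Entrez 14254, chromosome 5, 147561604 to 147726438) had 722, 348 and 264 in the Zfp292-OE-labelled libraries, against 740 and 1171 in controls. All 3 were below both controls, but Zfp292-OE-labelled library 1 was close to control library 1. The Flt1 log2 fold change was −1.20 (SE 0.47), and −0.87 without control library 2 or −1.62 without Zfp292-OE-labelled library 1.

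The Tie receptors were nearly absent. Tie1 (Entrez 21846, chromosome 4, 118471191 to 118489849) had 0, 0 and 2 reads in the Zfp292-OE-labelled libraries and 0 and 3 in controls. Tek (Entrez 21687, chromosome 4, 94739086 to 94874976) had 1, 69 and 1 reads in the Zfp292-OE-labelled libraries, against 0 in both controls. Nearly all Tek reads thus came from Zfp292-OE-labelled library 2, which was also the library with the highest Cldn5. A count of 0 allows up to 3 reads, which is 3.27 and 2.31 on the normalised scale of control libraries 1 and 2.

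Cdh5, the marker most often used to define endothelial cells (Entrez 12562, chromosome 8, 104101613 to 104144504), had 0, 4 and 0 reads in the Zfp292-OE-labelled libraries and 0 in both controls. Pecam1 (Entrez 18613, chromosome 11, 106654213 to 106715281) had 69.6, 27.3 and 105 in the Zfp292-OE-labelled libraries, against 54.5 and 30.8 in controls. The Pecam1 groups overlapped, and its lowest value was in the library where Cldn5 was highest. Emcn, a sialomucin of veins and capillaries (Entrez 59308, chromosome 3, 137341062 to 137431069), was the member most clearly lower in the Zfp292-OE-labelled libraries. It had 0, 0 and 6.28, against 43.6 and 78.6 in controls, with 6 reads in the Zfp292-OE-labelled libraries and 142 in controls. Its log2 fold change of −4.94 (SE 1.82) depends on the number added before taking logs, and was −2.55 with 10 in place of 1.

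The endothelial label was only partly borne out: Cdh5, Tie1 and Tek, which define these cells, had 4, 5 and 71 reads over all 5 libraries, while Flt1 had 3454, Pecam1 280 and Emcn 148. Plvap, of fenestrated vessels, had 2535 reads and S1pr1 6147. Of the 8 members, 2, Cdh5 and Tie1, had a mean value under 10 and were not in the tested set. Among the 6 others the groups did not overlap for 4, Cldn5 and Tek higher, Flt1 and Emcn lower. Of all tested genes, 49.9% were without overlap, 24.3% higher and 25.7% lower. The count of 4 cannot be read against that share. Cldn5 was picked for its difference, Tek passed the filter only through Zfp292-OE-labelled library 2, and Emcn only through the controls. In bulk RNA, fewer cells of a type and less RNA per cell cannot be told apart.

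Levels were compared between genes per kilobase of exon, using all exons of each gene in GENCODE M21, since the annotation used for counting is not given in the sources used here. On this scale Kdr came first and Cldn5 second in every library. Kdr had 4631, 3502 and 4075 per kilobase in the Zfp292-OE-labelled libraries, against 4421 and 5356 in controls. Cldn5 had 1409, 2279 and 1220 per kilobase in the Zfp292-OE-labelled libraries, against 165 and 144 in controls. Flt1 came next in every library, at 53.5, 25.8 and 19.5 per kilobase in the Zfp292-OE-labelled libraries and 54.8 and 86.7 in controls. Behind it the order changed between libraries, and all values were 16.8 per kilobase or less. By value, Kdr was 21, 9.80 and 21.3 times Cldn5 in the Zfp292-OE-labelled libraries, against 170 and 238 times in controls.

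Set against the other members, Cldn5 stood apart in the Zfp292-OE-labelled libraries and not in controls. Kdr, which was above Cldn5 in every library, is left out of the sums that follow. The Cldn5 value was 2.52, 7.28 and 4.57 times the sum of Pecam1, Cdh5, Flt1, Tek, Tie1 and Emcn in Zfp292-OE-labelled libraries 1, 2 and 3. In control libraries 1 and 2 it was 0.280 and 0.159 times that sum. The sum itself was 793, 444 and 378 in the Zfp292-OE-labelled libraries, against 838 and 1282 in controls. Relative to the control mean on the log2(value + 1) scale, Cldn5 was 3.95, 4.01 and 3.26 above the mean of the 7 other members in Zfp292-OE-labelled libraries 1, 2 and 3. The difference of log2 fold changes was 3.74. This mean of 7 depends on genes near 0 reads. In libraries 1, 2 and 3, Emcn stood at −5.90, −5.90 and −3.03, and Tek at 1.10, 6.04 and 1.03. Kdr, with the most reads, stood at −0.07, −0.47 and −0.26, and Flt1 at −0.37, −1.42 and −1.82.

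**Figure D2:**
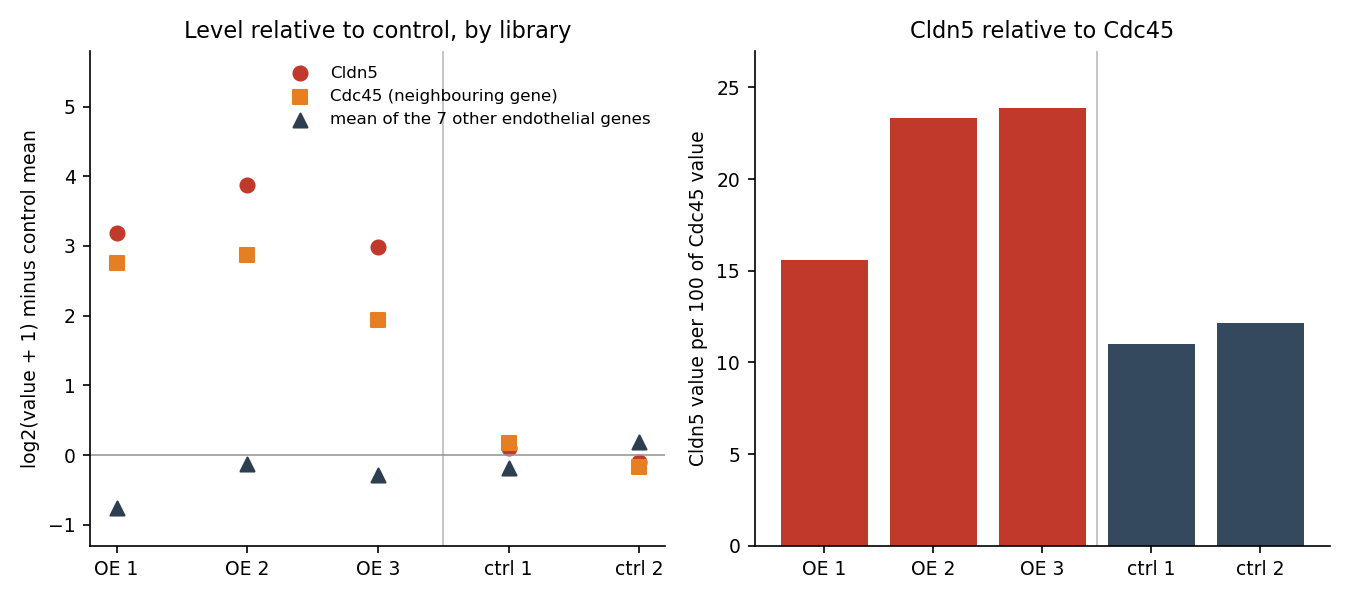
Left, log2(value + 1) minus the control mean in each library for Cldn5, its neighbour Cdc45 and the mean of the 7 other endothelial genes; right, the Cldn5 value per 100 of the Cdc45 value. In the Zfp292-OE-labelled libraries, Cldn5 lies at 3.19, 3.88 and 2.98 and Cdc45 at 2.76, 2.87 and 1.94, while the 7 others average −0.76, −0.13 and −0.28; per 100 of Cdc45, Cldn5 stands at 15.6 to 23.9 in the Zfp292-OE-labelled libraries and at 11 and 12.2 in controls.

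Cldn5 lies 2184 bases from Cdc45, which helps form the replicative helicase (chromosome 16, 18780447 to 18811972, minus strand), and the 2 genes are read towards each other, end to end. No annotated gene overlaps Cldn5. Cdc45 rose in the Zfp292-OE-labelled libraries, at 12814, 13832 and 7236, against 2134 and 1672 in controls, a log2 fold change of 2.52 (SE 0.27, limma adjusted p = 0.00055). Cldn5 reached 15.6, 23.3 and 23.9 per 100 of the Cdc45 value in Zfp292-OE-labelled libraries 1, 2 and 3, against 11 and 12.2 in controls. Cldn5 therefore differed between the groups by more than Cdc45 did. Whether counting used strand is not given in the sources used here, so reads running on past the end of Cdc45 could not be told apart from reads of Cldn5, and their part in the Cldn5 value was not tested.

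**Figure D3:**
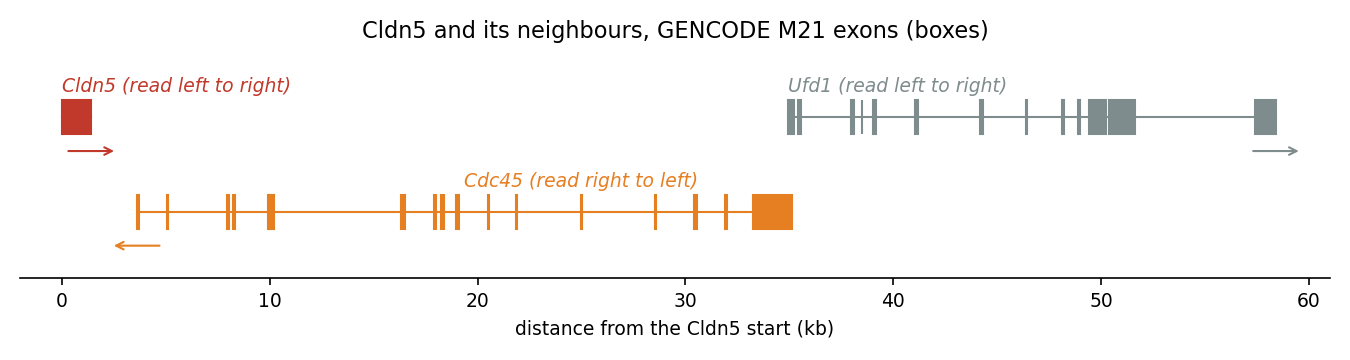
Exons (boxes) of Cldn5, Cdc45 and Ufd1 in GENCODE M21 along the distance from the Cldn5 start in kilobases, with arrows for the direction in which each gene is read. Cldn5 is a single exon, and the end of Cdc45 faces it across 2184 bases.

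Of the 16 nearest annotated genes on either side of the 8 members, 8 were in the table and 5 had a mean value of at least 10. Of these 5, 1 rose and 1 fell in limma, beside 17.4% of all tested genes called, too few genes to compare with that share. Cdc45 was the 1 that rose. Tex2, a lipid transfer protein 40779 bases from Pecam1, was the 1 that fell, with a log2 fold change of −0.99 (SE 0.29, limma adjusted p = 0.040), a call that was lost whenever any 1 library was left out. Pan3, 13102 bases from Flt1, had 4471, 3961 and 5889 in the Zfp292-OE-labelled libraries and 4306 and 5925 in controls, and its groups overlapped. Ift74, a ciliary transport protein and the nearest gene in the table on the left of Tek, rose as well, with 15743, 16262 and 14983 against 7653 and 7510 (1.05, SE 0.14, adjusted p = 0.0013).

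All 16 genes of the DNA replication list rose, Cdc45 among them, and their median log2 fold change was 1.80. The list was drawn up with the rise of such genes already known, so its count adds no independent support. The largest log2 fold changes in it were those of the licensing factor Cdc6 at 2.93 and of Cdc45, and the smallest was that of the GINS subunit Gins4 at 0.70. Cldn5, at 3.35, lay above all 16. The summed value of the list was 219817, 248397 and 160125 in the Zfp292-OE-labelled libraries, against 65276 and 60682 in controls. Their part in the Cldn5 value was not tested.

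Of genes averaging 50 or more, the 8 with values most like those of Cldn5 over the 5 libraries included no listed endothelial gene. Likeness was the root mean square difference between log2(value + 1) profiles, each taken relative to its control mean, over the 14292 genes averaging 50 or more. The nearest was Rsph1, a radial spoke head protein of motile cilia, at 0.19. Its values were 4908, 6054 and 3601 in the Zfp292-OE-labelled libraries, against 409 and 473 in controls. Next came the ATPase Fignl1 at 0.23, which acts in recombination repair, and Aurkb at 0.24, the kinase of the chromosomal passenger complex. The others of the first 8 were the kinase Melk (0.28), the kinetochore protein Ndc80 (0.325), the spindle midzone protein Prc1 (0.35), the abscission factor Cep55 (0.35) and the midzone kinesin Kif23 (0.38). Cdc45 was number 66 in this order, with a difference of 0.68. Of the members averaging 50 or more, Pecam1 was number 4254, Kdr 9072 and Flt1 12935. Cdh5, Tek, Tie1 and Emcn averaged less and were not ranked. The measure weighs the size of the group difference, for which Cldn5 was picked, so it mostly restates the log2 fold changes. Such an order over 5 libraries describes these values, and the libraries share their depth and their cell mix.

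Other endothelial genes passed the test in a share near that of all tested genes. Of 28 listed, 20 had a mean value of at least 10, and 1 rose, 2 fell and 17 did not pass the test in limma, 15% called beside 17.4% of all tested genes. Egfl7, a secreted factor of vessel growth whose intron also carries a microRNA, rose, with 3434, 4153 and 3113 in the Zfp292-OE-labelled libraries, against 1688 and 1801 in controls (log2 fold change 1.02, SE 0.21, adjusted p = 0.0097). Arhgap31, a GTPase-activating protein for Cdc42 and Rac1, fell, with 3035, 3973 and 3643 against 7373 and 6905 (−1.02, SE 0.18, adjusted p = 0.0056). Neither pair of groups overlapped. Tm4sf1, a membrane protein of the tetraspanin-like L6 family, fell as well, with 6.85, 73.3 and 6.28 in the Zfp292-OE-labelled libraries, against 781 and 149 in controls (−4.40, SE 1.22, adjusted p = 0.035). It lost its call without library 1 or Zfp292-OE-labelled library 3, and without either control.

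The sphingosine receptor S1pr1 had 1164, 265 and 794 in the Zfp292-OE-labelled libraries, against 1799 and 1875 in controls (−1.55, adjusted p = 0.069). Ramp2, the partner of the adrenomedullin receptor, had 283, 155 and 110 against 452 and 524 (−1.52, adjusted p = 0.073). In both genes every Zfp292-OE-labelled value lay below the controls, and neither gene passed. Over the list, 13 tested genes had a negative and 7 a positive log2 fold change, with a median of −1.29, and the median of all tested genes was −0.06. Its 28 genes summed to 9435, 10082 and 9509 in the Zfp292-OE-labelled libraries and to 14215 and 13440 in controls. Arhgap31 alone held 3035, 3973 and 3643 of these sums, against 7373 and 6905 in controls. Most of the gap between the sums is therefore that of 1 gene. Adgrl4 had 0 reads in every library, and 13 of the 28 stayed below 100 in each library.

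Transcription factors of endothelial cells ranged widely. Of 24 listed, 14 stayed below 100 in every library, while Tcf4, which many cell types express, had 38417, 28968 and 32628 in the Zfp292-OE-labelled libraries and 29039 and 38094 in controls. Of the 24, 16 were tested, and 0 rose, 1 fell and 15 did not pass. That is 6.25% called, beside 17.4% of all tested genes, with a median log2 fold change of −0.38. Erg, Sox7, Sox17 and Tal1, factors of the lineage, had 8.47 or less in every library, and Etv2 had 0. Other factors of the list were well above 0. Lmo2 had 523, 264 and 298 in the Zfp292-OE-labelled libraries, against 411 and 269 in controls. Ets1 had 273, 258 and 383 against 215 and 151, and Elk3 had 962, 673 and 1148 against 754 and 803. The 1 that fell was Foxf2, a forkhead factor of brain pericytes, with 0 in all 3 Zfp292-OE-labelled libraries, against 67.6 and 83.2 in controls (adjusted p = 0.047). It lost its call without any 1 library. Epas1, a hypoxia-inducible factor, had 829, 836 and 988 in the Zfp292-OE-labelled libraries, against 1228 and 3294 in controls (−1.19, adjusted p = 0.060, and 0.036 in edgeR).

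No other claudin was called higher in limma. Of the other 30 claudin genes looked for, 28 were in the table, and 10 of these had 0 reads in every library. Of 10 tested, 0 rose and 1 fell, 10% called beside 17.4% of all tested genes. The 1 that fell was Cldn12, a widely expressed claudin, with 3255, 3644 and 3485 in the Zfp292-OE-labelled libraries, against 5309 and 5176 in controls (−0.60, SE 0.17, adjusted p = 0.037, lost without any 1 library). Cldn34c1 had 3724, 2959 and 3072 against 2278 and 1812 (0.67, adjusted p = 0.055), and it belongs to a group of near-identical copies, so its reads are uncertain. Cldn23 had 111, 325 and 251 against 98.1 and 63.9 (1.38, adjusted p = 0.17). In Cldn34c1 and Cldn23 every Zfp292-OE-labelled value lay above the controls, though neither gene passed. Cldn34c1 did pass with a filter at a mean of 50, with quantile normalization and with DESeq2. Cldn19, the claudin of pigment epithelium, had 306, 105 and 262 against 151 and 129, and its groups overlapped. Cldn7 had 202, 263 and 146 against 352 and 298, and Cldn1 had 4.56, 348 and 84.8 against 143 and 136, with no call for either (adjusted p = 0.34 and 0.54). Cldn3, Cldn10, Cldn11 and Cldn15, at 136 or less in every library, were not called either (adjusted p = 0.29 to 0.55), with log2 fold changes of −2.83, −2.52, 1.94 and −2.51 and SEs of 1.73 to 2.07.

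**Figure D4:**
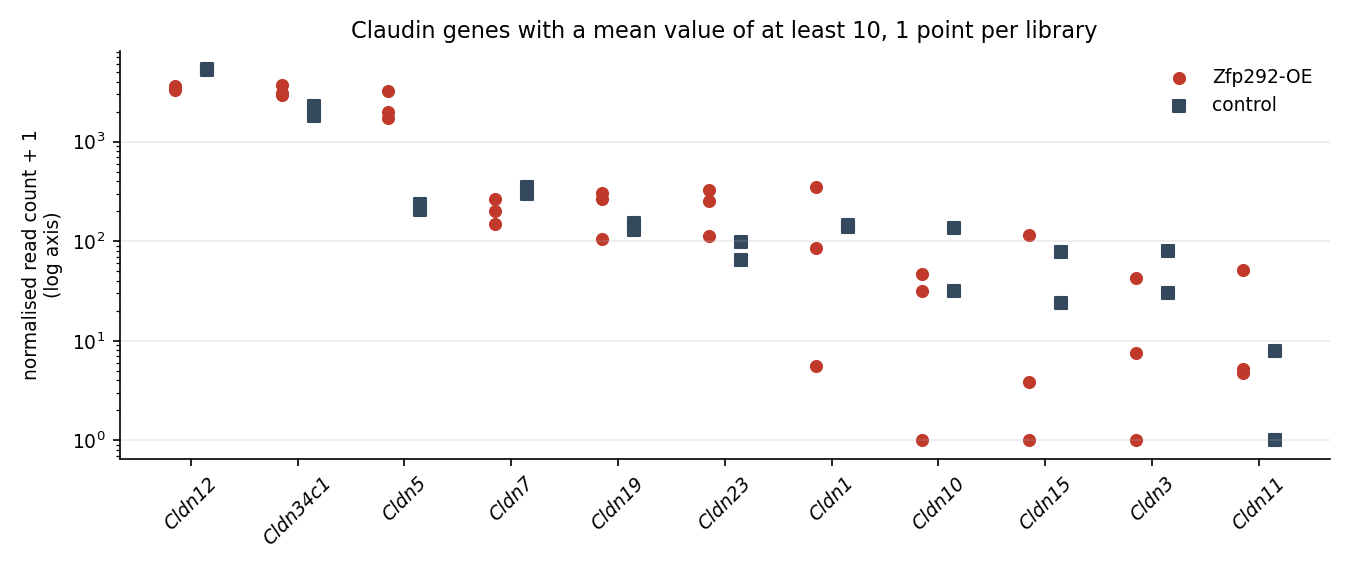
Normalised read count + 1 (log axis) of the 11 claudin genes that averaged 10 or more, ordered by that mean, 1 point per library, with Zfp292-OE-labelled libraries as circles and controls as squares. The 2 groups are farthest apart for Cldn5, at 1728 to 3227 in the Zfp292-OE-labelled libraries and 203 and 234 in controls.

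Few genes of the barrier and of cell junctions passed the test. Of 28 listed, 26 were tested, and 1 rose, 0 fell and 25 did not pass. That is 3.85% called, beside 17.4% of all tested genes, with a median of −0.03. The 1 that rose was Jam3, a junctional adhesion molecule, with 31547, 29492 and 33140 in the Zfp292-OE-labelled libraries, against 21221 and 22448 in controls (0.52, SE 0.13, adjusted p = 0.025), and it lost its call without any 1 library. Genes expressed well beyond vessels were abundant in both groups, among them the glucose transporter Slc2a1, with 32555, 36621 and 39405 in the Zfp292-OE-labelled libraries and 44579 and 37544 in controls. Occludin, encoded by Ocln and a usual partner of claudin-5 in tight junctions, had 0 in all 3 Zfp292-OE-labelled libraries, against 45.8 and 19.3 in controls. Slco1c1, a thyroid hormone transporter of barrier vessels, had 0, 0 and 6.28 in the Zfp292-OE-labelled libraries and 0 in both controls. Wnt7b, a ligand that induces barrier genes, had 521, 342 and 296 against 99.2 and 164 (1.55, adjusted p = 0.061).

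The ligands of the receptors were measured in the same libraries. Vegfa had 12826, 9918 and 12188 in the Zfp292-OE-labelled libraries, against 15508 and 16907 in controls (−0.48, SE 0.16, adjusted p = 0.062). Pgf, which binds Flt1, had 3059, 2705 and 1633 against 1210 and 1360 (0.89, SE 0.29, adjusted p = 0.060). Vegfb had 4386, 5043 and 3856 against 3721 and 4195, and Vegfc had 108, 310 and 67.0 against 433 and 67.8, with overlapping groups for both. Angpt1, the activating ligand of Tek, had 1140, 1200 and 1727 against 961 and 226 (1.51, adjusted p = 0.075). Angpt2, which can oppose it, had 180, 636 and 659 against 656 and 644 (−0.62, adjusted p = 0.47). None of these ligands passed the test. Of the 17 tested genes of ligands, coreceptors and vessel subtypes, 0 rose, 1 fell and 16 did not pass. That is 5.88% called, beside 17.4% of all tested genes, with a median of −0.46. The 1 that fell was Efnb2, an ephrin of arteries also made by retinal cells, with 4063, 2852 and 3345 in the Zfp292-OE-labelled libraries, against 6104 and 7708 in controls (−1.02, SE 0.20, adjusted p = 0.0095).

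Markers of pericytes, the cells that wrap small vessels, were mostly lower where Cldn5 was higher. Of 15 listed, 12 were tested, and 1 rose, 6 fell and 5 did not pass. That is 58.3% called, beside 17.4% of all tested genes, with a median of −2.44. Rgs5, a regulator of G protein signalling, fell, with 0, 16.0 and 2.09 in the Zfp292-OE-labelled libraries, against 1233 and 461 in controls (adjusted p = 0.0049). Higd1b fell too, with 0 in all 3, against 554 and 263. Vtn, which encodes vitronectin, had 736, 600 and 531 against 2342 and 1657 (−1.67, SE 0.30, adjusted p = 0.0056). The 1 that rose was Ndufa4l2, a hypoxia-induced mitochondrial protein, which made up most of the list's sum. With it the list summed to 98670, 79539 and 74989 in the Zfp292-OE-labelled libraries, against 48325 and 58563 in controls. Without it the sums were 1458, 1450 and 1476, against 6547 and 4020. Of the 12 tested, 10 had a negative log2 fold change, and Notch3, at 0.21, was positive and not called. Anpep and Des, which also mark pericytes, had 5.45 or less in every library. Whether these cells differed in number between the sorts, and what that did to Emcn, Flt1 and the other endothelial genes that were lower beside them, was not tested.

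**Figure D5:**
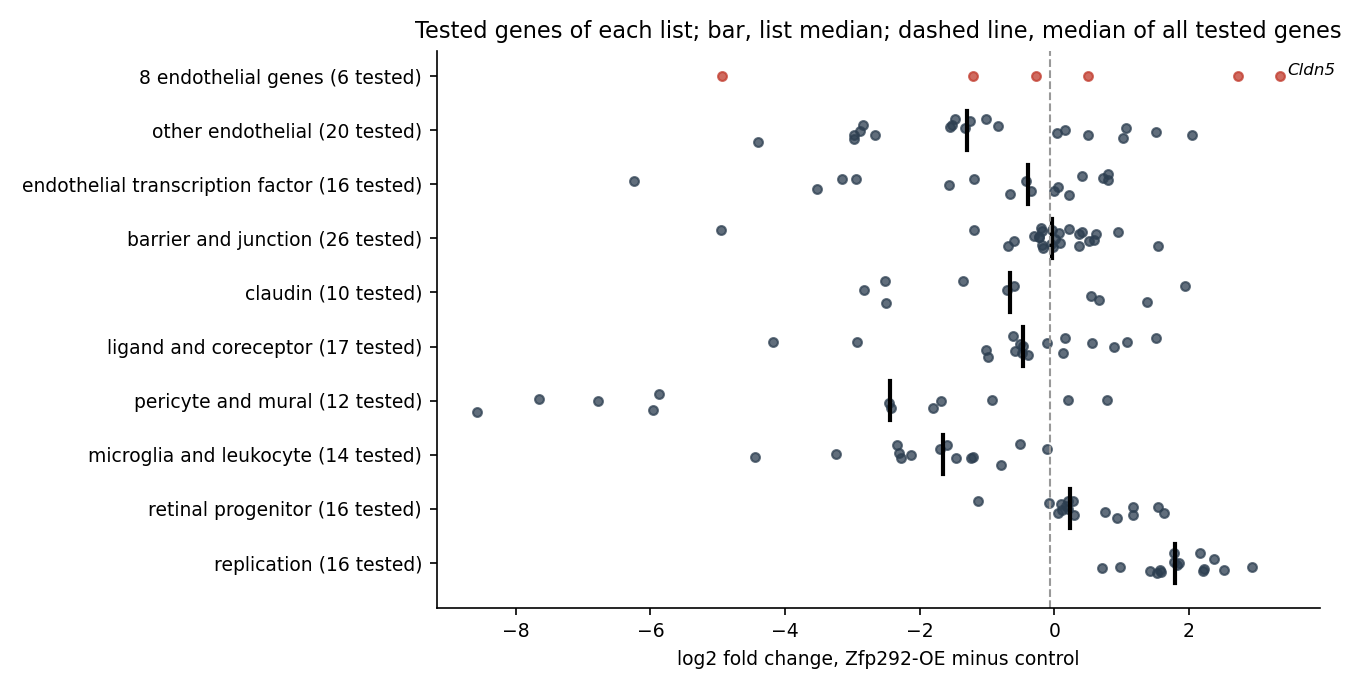
Log2 fold change, Zfp292-OE-labelled libraries minus control, of every tested gene in the 10 lists drawn (platelet and pigment epithelium lists left out), 1 point per gene, with the list median as a bar (not drawn for the 8 endothelial genes, of which 6 were tested) and the median of all tested genes (−0.06) as a dashed line. Cldn5 lies at 3.35, while the medians of the other endothelial genes (−1.29) and of pericyte genes (−2.44) lie to the left.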

How the data were processed

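Per gene, the deposited signal is a read count scaled by the authors with 1 factor for each library, as the values show: in each library 100% of values were whole multiples of the smallest value above 0, within 1e-06 of a read, and whole reads were recovered from these steps. The builds GRCm38 and mm10 are named in the submitters' processing notes; which aligner, counter, annotation and scaling were used is not given in the sources used here. Libraries were made with a SMARTER mRNA kit from 1.3 µg of total RNA, per the labels' protocols.

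The 16316 of 24594 genes averaging 10 or more entered limma (version 3.58.1, under R 4.3.3, with a mean-variance trend) as log2(value + 1). The contrast was Zfp292-OE over control, adjusted by Benjamini-Hochberg across these genes, with a threshold of 0.05; every adjusted p is from this fit unless edgeR is named. Because the values are normalised, count models (edgeR 4.0.16, DESeq2 1.42.0, on the recovered whole reads) were alternatives. The 8 members and the 11 other gene lists were chosen with earlier results of these data known, and no p is given for the members. Genes named are the members, their nearest annotated neighbours, up to 4 called and 2 other genes of smallest p in each list but replication, the tested claudins, the VEGF and angiopoietin ligands, and the 8 genes most like Cldn5; summaries stand for those not given singly. Cdc6, Gins4, Slc2a1, Ocln, Slco1c1 and the markers at or near 0 were named after their values were seen. So were Lmo2, Ets1, Elk3, Itga2b, Hba-a1, Best1 and Dct. Coordinates are RefSeq gene spans on GRCm38.p6 (24570 identifiers matched) and promoter windows are RefSeq's. The fit was tested on simulated data, in 5 datasets of 16316 genes. The share called was 33.6% at a simulated 2-fold change, 70.4% at 4-fold and 0.0459% among unchanged genes. The genes changed in each dataset were a far smaller share than the genes called in the real libraries. The adjusted threshold depends on that share, so these figures need not hold for the real libraries. Limits for a count of 0 cover counting error only. The alternatives were 15 in number. Figures were drawn with Python 3.11.15 and matplotlib 3.10.9. For the retinal progenitor list, 1 gene's result is not reported here.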

Additional observations from a re-analysis of the deposited data

How the results depend on the processing

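The Cldn5 log2 fold change kept its direction under all 15 alternatives and ranged from 3.08 to 3.53 with 1 library left out. Its difference from the mean of the 7 other members (3.74) was 2.70 with edgeR and 2.89 with DESeq2, and 3.45 to 4.04 with 1 library left out. The 2836 genes called by limma became 365 with no filter on low values and 1 to 2352 with 1 library left out; without Zfp292-OE-labelled library 1 there were 1657. Called genes of the other endothelial list (3) numbered 0 with no filter, 5 with equal totals, 5 with DESeq2 and 0 to 3 with 1 library left out. For transcription factors (1) they were 0 with a pseudocount of 0.5 or quantile normalization, 2 with equal totals, edgeR or DESeq2, and 0 to 1 with 1 left out. For barrier and junction genes (1) they were 0 with equal totals, 2 with quantile normalization, 4 with DESeq2 and 0 with any 1 left out. For claudins (1) they were 0 with no filter, 2 with a filter at 50, quantile normalization or DESeq2, and 0 with any 1 left out. For ligands (1) they were 0 with no filter, 2 with a filter at 50 or equal totals, 3 with quantile normalization or DESeq2, and 0 to 2 with 1 left out. Equal totals shifted the median of all genes to −0.27.

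Whether replicate numbers pair the libraries could not be decided. With only 2 controls, each is the mirror image of the other about their mean. A correlation with either control is therefore that with the other with its sign turned (same-number correlations −0.04 and −0.03). A block on the number leaves a Zfp292-OE-labelled library without a control of its number. The Cldn5, Zfp292 and Vegfc log2 fold changes that follow equal those with that library left out. With the number as a block, 2498 genes were called, Cldn5 was at 3.53, and called genes numbered 2 for transcription factors, 0 for barrier genes, 0 for claudins and 2 for ligands; Zfp292 was at −0.011 and Vegfc at 0.10.

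Signs turned for Zfp292 with equal totals (−0.17) and quantile normalization (−0.21), and its value ran from −0.033 to 0.12 with 1 library left out. They turned for Cldn1 with edgeR (0.037) and DESeq2 (0.063), with −2.69 to 0.30 when 1 library was left out, for Vegfb with equal totals (−0.060), and for Vegfc with quantile normalization (0.0072), with −1.71 to 0.94 when 1 was left out. The cause was not tested. For the other named genes, 410 values kept direction and call, 28 gained a call and 72 lost it. With 2 controls, leaving 1 out assumes that the lone control varies like the other group.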

Other observations

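Blood cells can carry Pecam1, so their markers were read in the same libraries. Of 14 microglial and leukocyte genes, all tested, 0 rose and 0 fell in limma, beside 17.4% of all tested genes called. In edgeR 0 were called, and in limma 1 had an unadjusted p below 0.05. All 14 had a negative log2 fold change, with a median of −1.65. Their sum was 3554, 6177 and 953 in Zfp292-OE-labelled libraries 1, 2 and 3, against 4073 and 14646 in control libraries 1 and 2. Csf1r, the receptor that microglia need, had 92.4, 263 and 0 in the Zfp292-OE-labelled libraries, against 363 and 1103 in controls (log2 fold change −4.44, adjusted p = 0.13). Library 3 labelled Zfp292-OE, lowest in these genes, had the highest Pecam1 value. Of 6 tested platelet and red cell genes, 0 rose and 0 fell in limma, beside 17.4% of all tested genes called. For these 6, edgeR called 0, and 1 had an unadjusted p below 0.05 in limma. The platelet factors Gp9, Ppbp and Treml1 had 0 reads in every library. Other genes of the list were read in every library. Itga2b had 241, 77.1 and 118 in the Zfp292-OE-labelled libraries, against 220 and 219 in controls. The globin gene Hba-a1 had 771, 643 and 121 against 398 and 99.3, and Hbb-bt had 261, 112 and 24.1 against 50.1 and 14.6. Gp1ba, a platelet adhesion receptor subunit, had 9.13, 10.3 and 13.6 against 106 and 111 (adjusted p = 0.058).

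Genes of the cells the labels name were abundant. Of 16 retinal progenitor genes, all tested, 6 rose, beside 1632 of all 16316 tested genes. Ccnd1, the G1 cyclin of retinal progenitors, rose, with 54303, 81971 and 47311 in the Zfp292-OE-labelled libraries, against 19732 and 18547 in controls. Pigment epithelium genes gave 0 higher and 1 lower of 10 tested, 10% called beside 17.4% of all tested genes. The 1 lower was Rlbp1, with 55891, 44324 and 64708 in the Zfp292-OE-labelled libraries, against 95675 and 101387 in controls (limma adjusted p = 0.0087). Of the 10, 8 had a positive log2 fold change, and the median was 0.58. Rpe65, the defining enzyme of pigment epithelium, had 0, 0 and 3.14 in the Zfp292-OE-labelled libraries and 0 and 3.08 in controls. Other genes of the list were read in every library. Best1 had 281, 382 and 242 against 172 and 176. Dct had 759, 646 and 524 against 578 and 400, and Tyrp1 had 297, 670 and 484 against 478 and 54.7.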
